A study of Mus musculus with 6 samples.

Results

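The genes described here are 30 genes of glucose uptake, glycolysis, lactate handling and glycogen metabolism, taken as a fixed list of symbols. All 30 symbols were found among the 32285 features of the deposited tables, and all have a place on the mouse build mm10 in the GENCODE vM21 annotation. A further feature that carries the name Aldoa had at most 0.137 CPM on average in any cluster and was left out. Levels are given as CPM, the UMIs (unique molecular identifiers, each marking a captured transcript) of a gene per 1000000 UMIs of the same library and cluster. A transcript is counted once whatever its length, but capture and unique mapping were not tested for single genes. Levels and shares set across genes therefore compare captured UMIs and not amounts of enzyme.

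Glycolysis splits glucose into pyruvate in the cytosol, and neutrophils, which hold few mitochondria, are known to lean on it for ATP. They also store glycogen, which they can use when glucose is scarce. Several reactions are carried out by isoenzymes encoded by separate genes, so that a cell can keep a reaction and change the enzyme.

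The cells were CD11b+ marrow cells of C57Bl/6 mice aged 2 months, measured as single cells by 3' sequencing. CD11b, the product of Itgam, marks myeloid cells, and the cells were selected with microbeads on a magnetic column. The femur group had 3 samples, of which replicate 1 was from female and the others from male mice, and its marrow was flushed from long bones. The mandible group had 3 samples, all from male mice, and its marrow was flushed both from the tooth sockets, once the molars were out, and from the inside of the bone. No treatment, transgene or deletion was named for either group. How many mice made up a sample was not given, so p-values measure the spread between these samples, which may in part be technical, and the female sample is found in the femur group alone.

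The neutrophils fell into 5 of the clusters deposited by the authors, which are ordered here by their markers. Cluster 4 was precursor-like, with Elane at 1058 CPM and Mpo at 290.1 CPM. It was also the cycling cluster of the 5, with 3107 of its 7621 cells called S phase and 4426 called G2M. Mki67, Top2a and Mcm5 summed to 1502 CPM there on average, against 79.1 CPM in cluster 0 and 10.3 CPM in cluster 2. In cluster 0, 18083 of 19261 cells were called G1. Steps from cluster 4 therefore also compare cycling with mostly non-cycling cells. Cluster 0 was immature neutrophil-like, with Ltf at 13232 CPM and Camp at 30396 CPM. The sum of Ltf, Camp, Ngp and Lcn2 did not tell it from cluster 4, with means of 92378 CPM in cluster 0 and 94984 CPM in cluster 4. The sum of Elane, Mpo, Prtn3, Ctsg and Fcnb did, with 260 CPM in cluster 0 and 3731 CPM in cluster 4. Cluster 3 was gelatinase stage-like, with Mmp8 at 5420 CPM, and clusters 2 and 1 were mature neutrophil-like, led by Stfa2l1 (2244 CPM) and Il1b (1902 CPM). Cluster 5 was monocyte-like, with Ccr2 at 748 CPM, but the deposited reference labels called 50.8% of its cells monocytes and 34.4% neutrophils, so values are also given for the monocyte-labelled cells alone. Cluster 6 was B lineage-like, cluster 7 held neutrophils with a high mitochondrial share, and cluster 8 was rich in haemoglobin transcripts, with 11 to 160 cells per library. Itgam was detected in every cluster, with means of 198 to 1082 CPM. In all, 69776 cells were used, libraries held 82962160 to 244946998 UMIs, and pairs of libraries shared 15 to 70 cell barcodes. The median cell held 21611 UMIs in cluster 4, 10972 in cluster 0, 7196 in cluster 3, 5848 in cluster 2 and 4780 in cluster 1 (means over the libraries), so a gene at a constant CPM falls in UMIs per cell along this order.

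Of the 30 genes, 5 were at least 2-fold higher in cluster 2 than in cluster 4 in every library, namely Slc2a1, Slc2a3, Slc16a3, Pfkfb4 and Pygl. Another 4 were at least 2-fold lower in every library, namely Tpi1, Ldhb, Pgm1 and Gys1. The background was 9380 genes that passed the low count filter in both clusters and had a value in every library. Of these, 15.6% met the rule upwards and 22.2% downwards, and the members' counts are near these shares. The members were not filtered in this way, and Ldhb did not pass the filter in cluster 2. The median log2 ratio of cluster 2 to cluster 4 was 0.07 over the 28 members with a value in every library and -0.13 over the 9380 genes. Clusters were built from the expression of the same cells, so differences between clusters are described and not tested. Cluster 4 holds mostly cycling cells, and the part of the cell cycle in its ratios to other clusters was not tested. TMM scaling raised each log2 ratio by 0.21, which turned the direction of Hk1, Gapdh, Pgk1 and Eno1. Counted as mean UMIs per cell, Slc2a1, Slc2a3 and Slc16a3 were the only members that were higher in cluster 2, and Pfkfb4 and Pygl were lower, with log2 ratios of -0.34 and -0.25. A change of CPM along these clusters is therefore a change of the share of a cell's RNA, and less RNA per cell cannot be told apart from less capture.

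The promoters shown are those of members that met the rule for a higher level in cluster 2 than in cluster 4. RefSeq windows (GRCm38.p6, 250 bases before to 50 after the start) matched 29 of the 30 members, with 42 windows in all, and Slc2a3 had no entry. Capitals mark the letters ACGTG on either strand, a form of the core of the element bound by hypoxia-inducible factors. The form GCGTG was not sought, so a window without capitals may still hold that form.
Slc2a1, chr4:119108495-119108794, plus strand: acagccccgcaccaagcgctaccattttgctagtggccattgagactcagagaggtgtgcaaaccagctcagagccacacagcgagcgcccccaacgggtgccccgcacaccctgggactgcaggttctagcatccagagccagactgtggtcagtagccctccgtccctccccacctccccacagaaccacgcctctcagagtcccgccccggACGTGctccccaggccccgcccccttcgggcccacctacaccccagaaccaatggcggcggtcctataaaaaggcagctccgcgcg
Slc16a3, chr11:120948817-120949116, plus strand: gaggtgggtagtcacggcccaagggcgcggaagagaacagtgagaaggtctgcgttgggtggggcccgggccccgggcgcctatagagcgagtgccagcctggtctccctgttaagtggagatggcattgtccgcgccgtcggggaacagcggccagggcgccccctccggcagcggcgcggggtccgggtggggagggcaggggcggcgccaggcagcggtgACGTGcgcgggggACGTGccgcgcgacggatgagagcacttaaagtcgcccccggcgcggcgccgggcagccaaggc
Pygl, chr12:70227634-70227933, minus strand: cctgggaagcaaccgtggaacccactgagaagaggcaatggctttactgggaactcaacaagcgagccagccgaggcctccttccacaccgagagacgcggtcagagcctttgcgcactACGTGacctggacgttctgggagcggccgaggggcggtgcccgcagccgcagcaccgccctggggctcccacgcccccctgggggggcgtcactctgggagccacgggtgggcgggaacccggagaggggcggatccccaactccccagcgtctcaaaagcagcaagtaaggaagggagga
Pfkfb4, chr9:108991652-108991951, plus strand: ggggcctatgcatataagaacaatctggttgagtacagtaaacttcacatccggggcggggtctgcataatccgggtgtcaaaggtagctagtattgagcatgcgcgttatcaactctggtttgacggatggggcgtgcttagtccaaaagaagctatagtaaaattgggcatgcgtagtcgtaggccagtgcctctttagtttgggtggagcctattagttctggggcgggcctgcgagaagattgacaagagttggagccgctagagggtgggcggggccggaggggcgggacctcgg
The Slc16a3 window holds the letters at 2 places, the Slc2a1 and Pygl windows at 1 place each, and the Pfkfb4 window at none. Among the members that were lower in cluster 2, the Pgm1 window holds them and those of Tpi1, Ldhb and Gys1 do not. Of the 42 member windows, 22 (52.4%) hold ACGTG, against 19.6% of 32851 windows of all genes and 25.8% of 11907 windows of genes above the low count filter in cluster 4. CACGTG, the E-box that contains ACGTG, is in 4 member windows against 7.15% of all windows. TTGCNNAA, a form of the C/EBP motif, is in 3 against 10.8%, and GAGGAAGT, a form of the PU.1 motif, is in 0 against 3.2%. All motifs were sought on both strands, and a match is a match of letters only.

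Glucose enters through facilitative transporters, of which Slc2a3 (GLUT3; chr6:122727809-122801640, minus strand) has a high affinity and Slc2a1 (GLUT1; chr4:119108711-119137983, plus strand) is the widespread form. The lowest, median and highest library values of Slc2a3 were 143, 154 and 160.1 CPM in cluster 4, 342, 420.4 and 466 CPM in cluster 0 and 625, 838 and 1072 CPM in cluster 2. The ranges of these clusters did not overlap, and in cluster 3 the range was already 553 to 895 CPM. Slc2a1 was lower in level than Slc2a3 in each neutrophil cluster and its mean log2 steps were 0.98 from cluster 4 to 0, 1.02 from 0 to 3, 1.03 from 3 to 2 and 0.37 from 2 to 1. Its lowest, median and highest values were 6.86, 7.89 and 10.2 CPM in cluster 4, 13.5, 16.6 and 17.9 CPM in cluster 0, 58.8, 61.9 and 83.6 CPM in cluster 2 and 72, 83.3 and 106 CPM in cluster 1. The log2 ratio of cluster 2 to cluster 4 was 3.03 ± 0.26 for Slc2a1 and 2.45 ± 0.31 for Slc2a3 (SD, n = 6 libraries). Slc2a1 made up 5.12 ± 0.71% of the UMIs of the pair in cluster 4, 3.85 ± 0.707% in cluster 0 and 9.47 ± 2.7% in cluster 1. In the monocyte-labelled cells it made up 46.6 ± 7.61%, with Slc2a3 at only 23.1 ± 7.54 CPM.

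**Figure D1:**
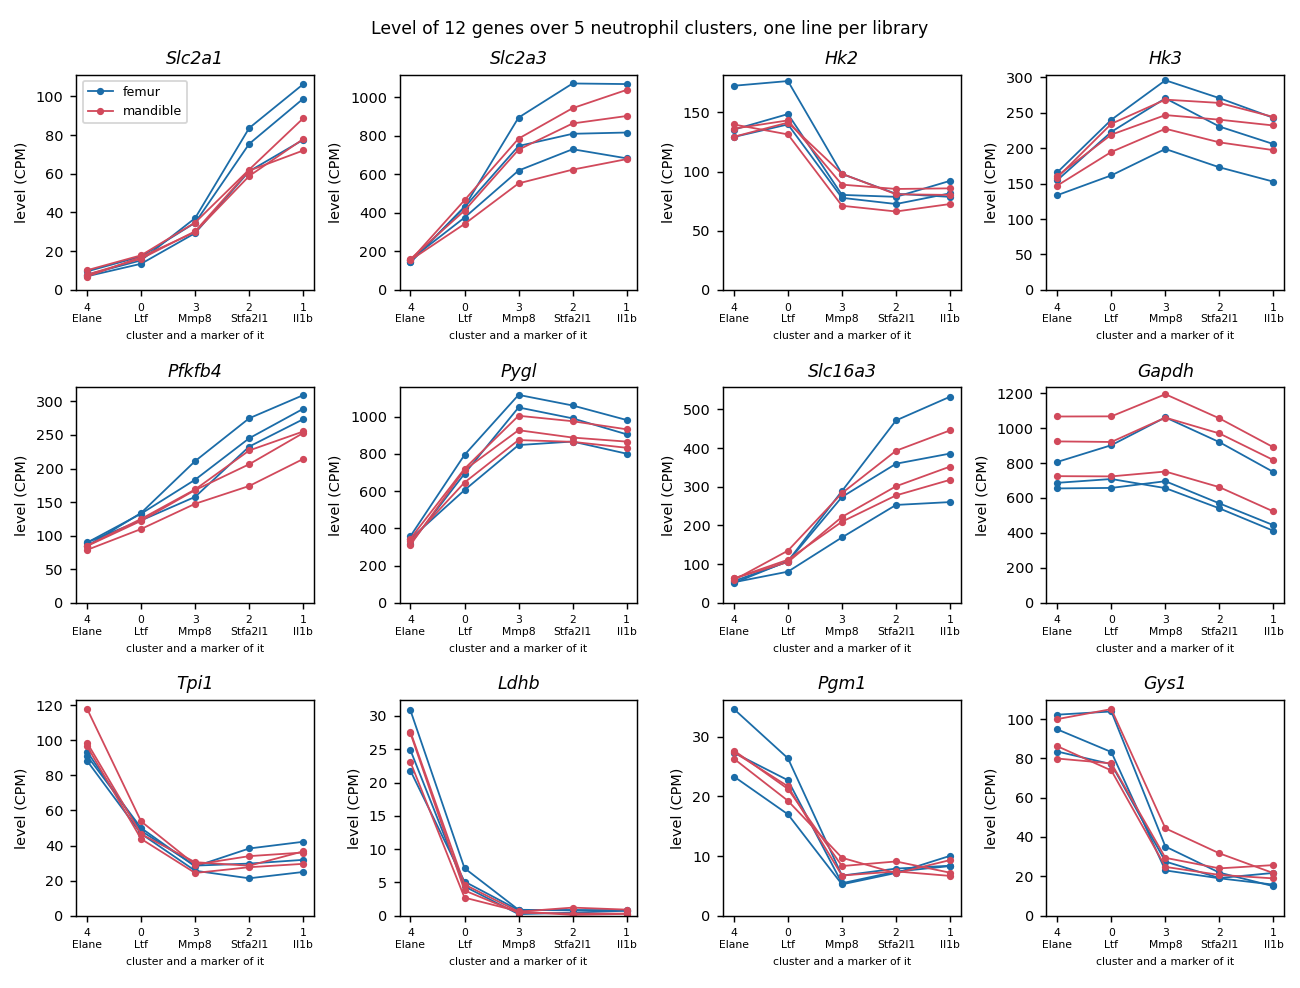
Level of 12 genes (y axis, CPM, from 0) in neutrophil clusters 4, 0, 3, 2 and 1 (x axis, each with a marker gene), with 1 line per library, coloured by site. Slc2a1 and Slc16a3 climb along the order, Ldhb, Pgm1, Gys1 and Tpi1 drop, and the lines of both sites interleave.

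Hexokinases trap glucose in the cell as glucose 6-phosphate, and the balance of their isoenzymes differed along the order. Hk2 (chr6:82725025-82774454, minus strand) ranged from 129 to 173 CPM in cluster 4, from 131 to 177 CPM in cluster 0 and from 66.3 to 85.3 CPM in cluster 2. Hk3 (chr13:55005985-55021385, minus strand), the form typical of myeloid cells, ranged from 134 to 166 CPM in cluster 4 and from 173 to 271 CPM in cluster 2. Hk2 was thus lower and Hk3 higher in cluster 2 in every library, without overlap of the ranges. Hk2 took 41 ± 2.4% of hexokinase UMIs in cluster 4, 35.2 ± 2.72% in cluster 0, 22.2 ± 2.08% in cluster 3 and 22.2 ± 1.96% in cluster 2. Hk3 took 44.9 ± 2.94%, 50.5 ± 3.35%, 64.7 ± 3.43% and 65.4 ± 2.85% in the same clusters. From cluster 4 to cluster 2 the share of Hk3 gained 20.5 ± 2.25 percentage points, and it gained in 6 of 6 libraries. Hk1, the widespread form that binds mitochondria, kept mean shares of 12.4% to 14.3% in these 5 clusters. Monocyte-labelled cells had the other order, with Hk2 at 67.4 ± 2.81% and Hk3 at 19.1 ± 2.48%.

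Phosphofructokinase commits sugar to glycolysis, and the Pfkfb enzymes make and degrade its activator, fructose 2,6-bisphosphate. The platelet-type gene Pfkp was the main form by UMIs, at 73.2 ± 4.21% of the family in cluster 4 and 81.2 ± 7.85% in cluster 2. Its share was higher in cluster 2 in 5 of 6 libraries, and in femur replicate 3 it changed by -2.89 percentage points. The liver-type gene Pfkl had a mean of 10.5 CPM or less in the 5 neutrophil clusters, and the muscle-type gene Pfkm of 0.421 CPM or less. Pfkfb4 (chr9:108991778-109032228, plus strand) ranged from 78.8 to 90 CPM in cluster 4, from 109.9 to 134 CPM in cluster 0 and from 214 to 309 CPM in cluster 1. Pfkfb3 did not follow, with 97.7 ± 16.8 CPM in cluster 4 and 96.6 ± 20.1 CPM in cluster 1. Pfkfb4 accordingly made up 46.9 ± 3.22% of the UMIs of this pair in cluster 4, 58.5 ± 5.57% in cluster 3 and 73.3 ± 4.91% in cluster 1.

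**Figure D2:**
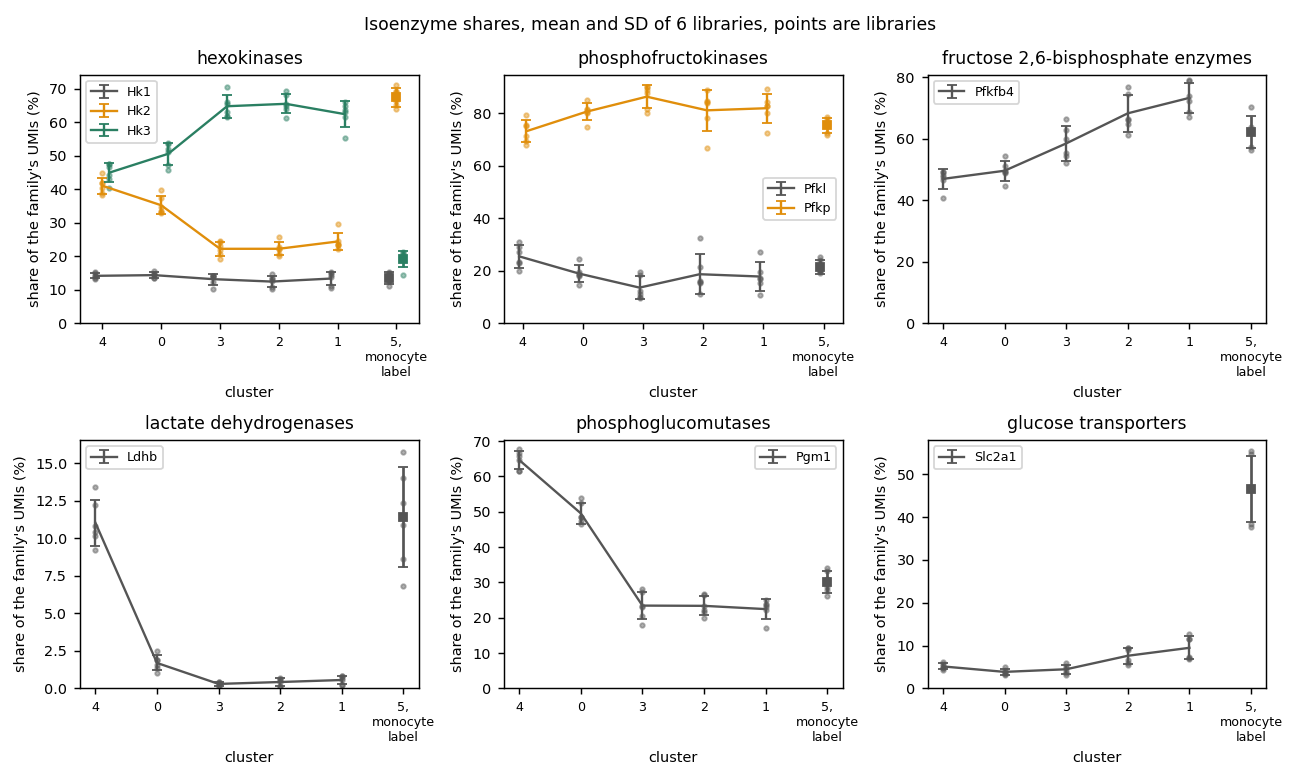
Share of a family's UMIs taken by an isoenzyme (y axis, percent, from 0) in neutrophil clusters 4, 0, 3, 2 and 1 and in the monocyte-labelled cells of cluster 5 (x axis). Small points are libraries, and lines or squares with bars give the mean and SD of 6 libraries. Hk3 and Hk2 part along the order, Pfkfb4 gains, and Ldhb and Pgm1 lose most of their share by cluster 3.

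The enzymes of the common trunk moved less. Summed over Gpi1, Aldoa, Tpi1, Gapdh, Pgk1, Pgam1, Eno1 and Pkm, the level was 2861 ± 334 CPM in cluster 4, 2900 ± 263 CPM in cluster 0, 3033 ± 341 CPM in cluster 3 and 2406 ± 379 CPM in cluster 1 (SD, n = 6 libraries), and the ranges of clusters 4 and 3 overlapped. Gapdh, the most abundant of them in cluster 4, had 810.5 ± 158 CPM there, 903 ± 229 CPM in cluster 3 and 639 ± 205 CPM in cluster 1. Aldoa (aldolase) and Pkm (pyruvate kinase) were higher in cluster 2 than in cluster 4 in 6 of 6 libraries, with log2 ratios of 0.24 ± 0.07 and 0.39 ± 0.07. Pgam1 (phosphoglycerate mutase) and Gpi1 (glucose 6-phosphate isomerase) were lower in 6 of 6, with -0.70 ± 0.13 and -0.43 ± 0.06. Tpi1 (chr6:124810586-124814296, minus strand), which interconverts the triose phosphates, had the lowest ratio among the 8. It ranged from 88.3 to 118 CPM in cluster 4, from 43.8 to 53.8 CPM in cluster 0 and from 21.3 to 38.3 CPM in cluster 2. Eno1 (enolase) had means of 129 to 148 CPM in the 5 clusters, and Eno1b, a close copy, of 3.39 to 4.17 CPM.

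Lactate dehydrogenase turns pyruvate into lactate, and its tetramers are built from the products of Ldha and Ldhb. Ldhb (chr6:142490249-142507957, minus strand) ranged from 21.8 to 30.8 CPM in cluster 4, from 2.7 to 7.13 CPM in cluster 0 and from 0.103 to 1.2 CPM in cluster 2, where it rested on 40 UMIs in all libraries together. Its mean log2 ratio was -2.54 for the step from cluster 4 to 0 and -3.03 for that from 0 to 3. Its share of lactate dehydrogenase UMIs was 11 ± 1.53% in cluster 4, 1.69 ± 0.497% in cluster 0 and 0.297 ± 0.11% in cluster 3, and 11.4 ± 3.34% in the monocyte-labelled cells. Ldha was highest in cluster 0, at 268 ± 21.9 CPM, with 211 ± 26.1 CPM in cluster 4 and 119 ± 24.7 CPM in cluster 1. Pdk1, a kinase that keeps pyruvate out of the citric acid cycle, had means of 3.23 CPM or less in the 5 neutrophil clusters and 14.6 ± 5.35 CPM in cluster 6.

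Lactate crosses the membrane by monocarboxylate transporters. Slc16a3 (MCT4; chr11:120948480-120960868, plus strand), the export form of glycolytic cells, ranged from 51 to 63 CPM in cluster 4, from 80.4 to 135 CPM in cluster 0, from 169 to 289 CPM in cluster 3 and from 260.3 to 533 CPM in cluster 1. Each of these ranges lay above the one before it except the last, which overlapped that of cluster 3. Slc16a1 (MCT1) made up 5.32 ± 1% of the UMIs of the pair in cluster 4 and 0.316 ± 0.146% in cluster 0, and 1 UMI of it was counted in cluster 3 in all libraries together. Slc16a1 made up 5.53 ± 4.43% of the pair in the monocyte-labelled cells and 58.6 ± 14.3% in cluster 6. In cluster 8 it made up 52.7 ± 28.8%, with libraries from 9.22% to 85%, and the reference labels called 87.6% of the cells of that cluster neutrophils.

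Pygl (chr12:70190811-70231488, minus strand), the phosphorylase gene of the list, whose product frees glucose 1-phosphate from glycogen, ranged from 312 to 358 CPM in cluster 4, from 606 to 795 CPM in cluster 0, from 848 to 1117 CPM in cluster 3 and from 865 to 1060 CPM in cluster 2. Gys1 (chr7:45434844-45456619, plus strand), glycogen synthase, ranged from 79.9 to 102 CPM in cluster 4, from 73.8 to 105 CPM in cluster 0, from 23 to 44.4 CPM in cluster 3 and from 19 to 31.7 CPM in cluster 2. Pygl was higher from cluster 0 on, whereas Gys1 held its level in cluster 0 and was low from cluster 3 on. Gbe1, the branching enzyme, had 131 ± 13.6 CPM in cluster 4, 202 ± 32.2 CPM in cluster 0, 213 ± 40.8 CPM in cluster 3 and 136 ± 26.7 CPM in cluster 1. Ugp2, which makes UDP-glucose for glycogen, had means of 113 to 127 CPM in the 5 clusters.

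Phosphoglucomutase joins glycogen to glycolysis by interconverting glucose 1-phosphate and glucose 6-phosphate. By the identifiers of the files, Pgm1 is ENSMUSG00000025791 (chr4:99929414-99987294, plus strand) and Pgm2 is ENSMUSG00000029171 on chromosome 5, and in older mouse nomenclature both symbols were exchanged. Pgm1 made up 64.6 ± 2.62% of the UMIs of the pair in cluster 4, 49.5 ± 2.94% in cluster 0 and 23.4 ± 3.85% in cluster 3. The change from cluster 4 to cluster 2 was -41.3 ± 4.6 percentage points and had the same sign in 6 of 6 libraries. Pgm1 went from 27.8 ± 3.73 to 7.68 ± 0.744 CPM between these clusters, and Pgm2 from 15.1 ± 1.14 to 25.5 ± 3.88 CPM. Whether the products of both genes serve this reaction alike was not tested, so the share describes UMIs and not a kept reaction. G6pdx, which opens the pentose phosphate pathway that supplies NADPH, was highest in cluster 0, at 245 ± 17.2 CPM, with 172 ± 15.1 CPM in cluster 4 and 113 ± 17.4 CPM in cluster 1.

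**Figure D3:**
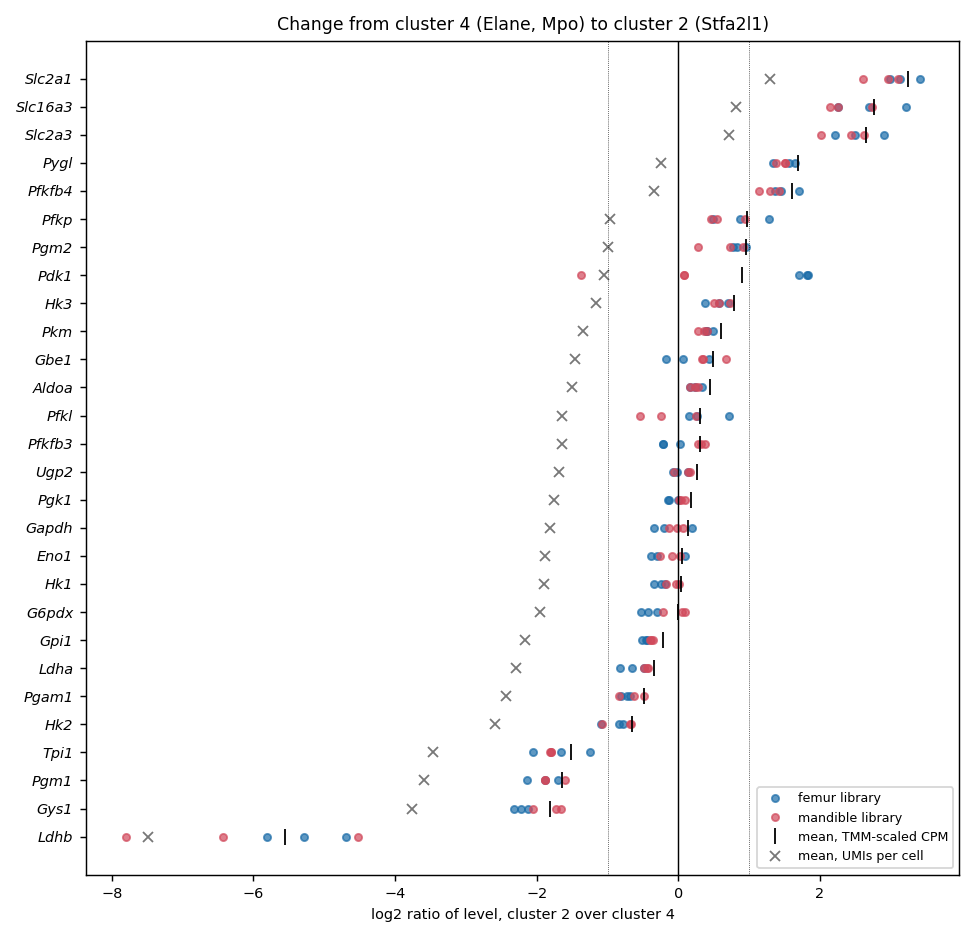
Log2 ratio of the level in cluster 2 to that in cluster 4 (x axis) for the 28 members with a value in every library (y axis), with 1 point per library coloured by site, bars for the mean under TMM scaling and crosses for the mean in UMIs per cell. Dotted lines mark 2-fold. Points run from Slc2a1 at 3.03 on average to Ldhb at -5.76, and only Slc2a1, Slc2a3 and Slc16a3 have crosses above 0.

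Of 64 other genes of the pathway, 49 had a value in every library. In every library 5 of these were at least 2-fold higher and 15 at least 2-fold lower in cluster 2 than in cluster 4. The shares of 15.6% and 22.2% given above are of genes past the low count filter. That filter was not applied to these 49 genes or to the regulators. Of 14 regulators of the pathway, 12 had a value, and 4 were higher and 2 lower by the same rule. The furthest changes among these genes at a mean of at least 20 CPM were in Slc2a6, a hexose transporter of the same family, with a log2 ratio of 4.19 ± 0.71, and in Pgp, a phosphatase that clears 2-phosphoglycolate, with -3.56 ± 0.37. Next was Ppp1r3b, a subunit that brings protein phosphatase 1 to glycogen, with 3.30 ± 0.44 (SD, n = 6 libraries).

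Levels in cluster 5 depended on which of its cells were summed. Slc2a3 had 168 ± 28.5 CPM in the whole cluster and 23.1 ± 7.54 CPM in its monocyte-labelled cells. Pygl had 326 ± 25.3 and 189.6 ± 12.2 CPM, and Gys1 29.7 ± 8.26 and 10.2 ± 1.28 CPM. Hk2 was at 153 ± 11.3 CPM in the whole cluster and 177 ± 19.6 CPM in the monocyte-labelled cells, so it did not share that drop. All 4 immature neutrophil markers were detected in the whole cluster, at a summed level of 14015 to 36415 CPM in the femur and 15347 to 22829 CPM in the mandible, and their mean was 3149 CPM in the monocyte-labelled cells. The 3 ameloblast markers summed to 15.6 to 1316 CPM in the mandible and to 0.55 CPM or less in the femur. The part of free RNA or of mixed cells in these levels was not tested.

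Whether the marrow site changed these genes was tested in each cluster on UMI sums per sample, with edgeR's quasi-likelihood test and Benjamini-Hochberg adjustment over all genes. The low count filter was passed by 30 members in clusters 4 and 5, 29 in cluster 0, 27 in clusters 1, 2 and 6, 26 in cluster 3, 25 in cluster 7 and 21 in cluster 8. With edgeR 0 members were called in any cluster at an adjusted p under 0.05, and with DESeq2 likewise 0. Of all genes tested, edgeR called 0.0163% in cluster 0, 0.0842% in cluster 1, 0.0416% in cluster 2, 0.0108% in cluster 3, 0.0245% in cluster 4, 0.0842% in cluster 7 and 0% in clusters 5, 6 and 8. At an unadjusted p under 0.05, 7 members passed in cluster 4 (13% of all genes), 5 in cluster 1 (13.6%), 3 in cluster 0 (6.81%), 3 in cluster 2 (12.2%), 2 in cluster 6 (4.04%) and 1 in cluster 5 (7.11%). In clusters 3, 7 and 8, where 4.38%, 5.32% and 1.1% of all genes passed, 0 members did. Among the other 64 genes and the 14 regulators, 0 were called in any cluster.

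Pgam1 (chr19:41911923-41918660, plus strand) was higher in every mandible sample than in every femur sample in clusters 0, 1, 2 and 4, but was not called. In cluster 4 it had 195, 207 and 193 CPM in femur replicates 1, 2 and 3 and 217, 224 and 257 CPM in the mandible replicates. In cluster 1 it had 114, 103 and 107 CPM in the femur and 128, 137 and 125 CPM in the mandible. The log2 fold change of mandible over femur was 0.26 (SE 0.09) in cluster 4, with a 95% interval of 0.06 to 0.45 and an edgeR adjusted p of 0.311. In cluster 1 it was 0.40 (SE 0.13), with an interval of 0.10 to 0.70 and an edgeR adjusted p of 0.243. The fit's TMM scaling enters these values, and in cluster 1 the log2 ratio of mean CPM was 0.26 for Pgam1, 0.47 for Gapdh, 0.41 for Gbe1 and 0.39 for Pgk1. Library names carry numbers, of which 6 and 7 occur at both sites, and within these the log2 ratio of plain CPM was 0.31 and 0.35 in cluster 1 and 0.06 and 0.21 in cluster 4.

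Gapdh varied more between libraries of one site. In cluster 1 it had 444, 412 and 748 CPM in femur replicates 1, 2 and 3 and 523, 817 and 890.0 CPM in the mandible replicates, so the groups overlapped. Its log2 fold change there was 0.60 (SE 0.29), with an edgeR adjusted p of 0.41, and within numbers 6 and 7 the log2 ratio of plain CPM was 0.34 and 0.13. Gbe1 had 129.8, 130.3 and 90.2 CPM in the femur and 152, 144 and 169 CPM in the mandible in the same cluster, without overlap. Its log2 fold change was 0.55 (SE 0.15), with the lowest edgeR adjusted p of any member in any cluster, 0.177. Pgk1 (phosphoglycerate kinase), a gene of the X chromosome, had 139, 114 and 144 CPM in the femur and 146, 199 and 175 CPM in the mandible. Its log2 fold change was 0.52 (SE 0.18), with an edgeR adjusted p of 0.252. The female sample, femur replicate 1, lay between the male femur samples.

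Stage markers also differed between the sites within clusters, without overlap. In cluster 1 the summed level of the 4 immature neutrophil markers was 2869 to 6598 CPM in the femur and 6727 to 15375 CPM in the mandible, that of the 3 gelatinase stage markers 16201 to 17562 CPM in the femur and 22716 to 25060 CPM in the mandible and that of the 5 mature neutrophil markers 8629 to 11977 CPM in the femur and 6373 to 7800 CPM in the mandible. In cluster 2 the immature markers summed to 6181 to 12154 CPM in the femur and 13986 to 21609 CPM in the mandible and the mature markers to 7538 to 9408 CPM in the femur and 5477 to 6500 CPM in the mandible. Mandible cells of both clusters were thus higher in immature and lower in mature markers, and the sum of their 5 monocyte markers was higher (323 to 426 CPM in the femur and 513 to 648 CPM in the mandible in cluster 1, 528 to 669 CPM in the femur and 752 to 855 CPM in the mandible in cluster 2). In G1 cells of cluster 0, Ly6c2 alone gave 915 CPM of a mean sum of 934 CPM, so this sum need not stand for monocytes. Its means were 929 CPM in cluster 0, 1073 in cluster 3, 704 in cluster 2 and 479 in cluster 1. In cluster 0 the 5 precursor markers were lower in the mandible (273 to 367 CPM in the femur and 172 to 238 CPM in the mandible), and in cluster 4 the 3 cycling markers were lower (1485 to 2069 CPM in the femur and 1178 to 1435 CPM in the mandible). The median mitochondrial percent of cells was 0.196% to 0.266% in the femur and 0.295% to 0.365% in the mandible in cluster 1 and 0.193% to 0.238% in the femur and 0.292% to 0.359% in the mandible in cluster 2. Pgam1 itself had 216 ± 23.8 CPM in cluster 4 and 207 ± 18.5 CPM in cluster 0, above its 119 ± 12.9 CPM in cluster 1, and Gbe1 and Pgk1 were also higher in clusters 0 and 3 than in cluster 1. The part of these markers in the site values of the members was not tested.

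Members whose mandible values all lay on one side of all femur values numbered 8 in cluster 1, where the background over all genes tested was 21.8%. They numbered 6 in cluster 2 (background 14.9%), 6 in cluster 4 (16%), 5 in cluster 5 (11.6%) and 4 in cluster 7 (10.7%). In clusters 0 and 6 they numbered 3 each (11.1% and 9.24%), in cluster 3 1 (7.71%) and in cluster 8 0 (4.6%). The median log2 fold change of the members was 0.04 in cluster 0, 0.17 in cluster 1, 0.11 in cluster 2, 0.03 in cluster 3, 0.07 in cluster 4, 0.07 in cluster 5, -0.11 in cluster 6, 0.13 in cluster 7 and -0.05 in cluster 8, against medians of -0.01 to 0.02 over all genes. On plain CPM the median of all genes shifted by -0.13 in cluster 1 and by -0.11 in cluster 7, and by less than 0.1 in the others. The members' median on that scale was 0.04 in cluster 1, 0.02 in cluster 7 and -0.01 in cluster 0, where its sign turned. Single members with the other sign on plain CPM numbered 8 in cluster 6, 4 each in clusters 0 and 7, 3 each in clusters 1 and 5, 1 each in clusters 2, 4 and 8 and 0 in cluster 3. The median SE of the members was 0.10 in cluster 4 and 0.48 in cluster 8, so small differences could not have been detected, least of all in cluster 8.

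**Figure D4:**
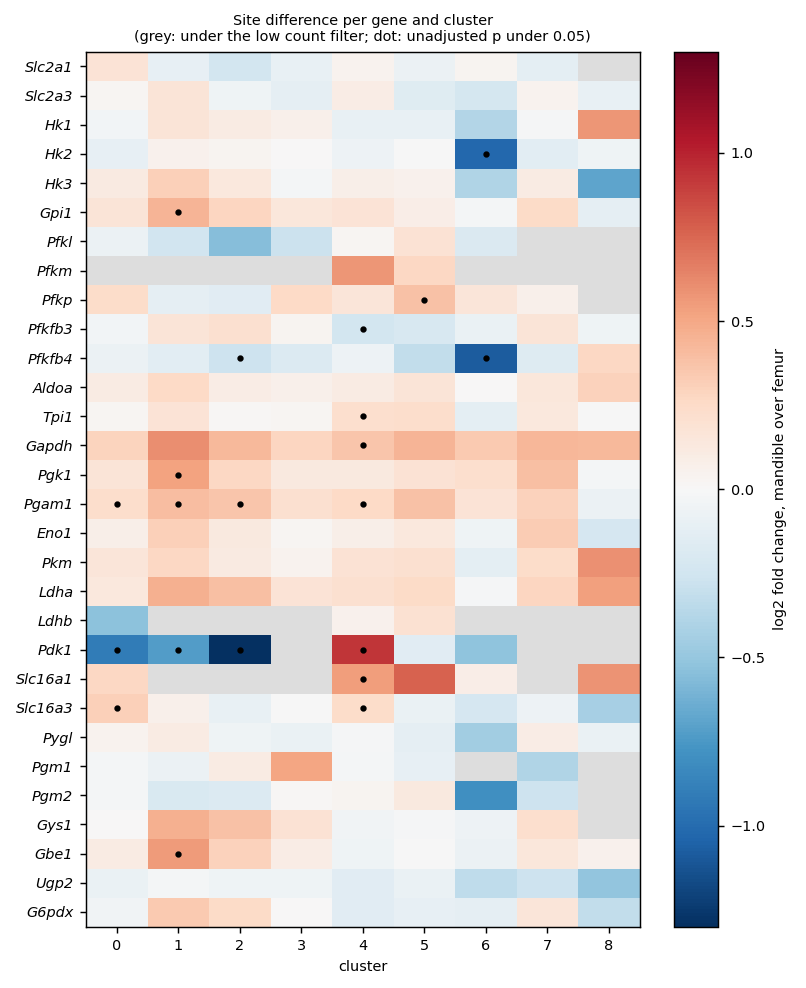
Log2 fold change of mandible over femur (colour scale) for each member and each of the 9 clusters. Grey cells did not pass the low count filter and dots mark an unadjusted p under 0.05. Pgam1 carries dots in clusters 0, 1, 2 and 4, and no cell passed after adjustment.

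Isoenzyme shares were compared between the sites by exact permutation over the 20 possible assignments, which cannot give a 2-sided p below 0.1. Of 88 shares in the 9 clusters, 5 (5.68%) did not overlap between the sites, each with an exact p of 0.1 and an adjusted p of 0.951. They were Hk2 in cluster 1, Ldhb in clusters 0 and 6, and Pgm1 in clusters 3 and 5. Cell markers of cluster 5 also differed between the sites without overlap. The mature neutrophil markers summed to 1219 to 1387 CPM in the femur and 815 to 881 CPM in the mandible. The dendritic cell markers summed to 2547 to 4066 CPM in the femur and 1244 to 2210 CPM in the mandible. The part of these markers in the Pgm1 share was not tested. In cluster 6 the Ldhb share rests on 17 Ldhb UMIs in all libraries together, with as few as 26 UMIs of the pair in 1 library, and Ldhb did not pass the low count filter there. In cluster 1 Hk2 made up 25.9 ± 3.19% of hexokinase UMIs in the femur and 22.8 ± 0.666% in the mandible (SD, n = 3 each). Whether the step between neighbouring clusters differed between sites was tested with limma for the steps 4 to 0, 0 to 3, 3 to 2 and 2 to 1. With limma 0 members were called in any step, against 0% of all genes, and at an unadjusted p under 0.05 there were 3, 2, 0 and 3 members, against 6.61%, 6.83%, 9.96% and 10.5% of all genes. The Pfkfb4 share gained 24.1, 30.2 and 25.3 percentage points from cluster 4 to cluster 2 in the femur replicates and 17, 13 and 18.5 in the mandible replicates, without overlap. From cluster 2 to cluster 1 the order of the sites was the other way, with 3.99, 2.01 and 4.57 in the femur and 7.48, 5.92 and 6.23 in the mandible. Steps of the Hk3 share (0 to 3 and 2 to 1) and of the Pgm1 share (3 to 2) did not overlap either. How many of all share steps did not overlap was not counted. The immature and mature markers of cluster 2 differed between the sites as well, as given above. These differences in the shares were picked out after the values were seen and were not tested, nor was the part of those markers in them.

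Cells were also compared by cell cycle phase within a cluster, as the authors called it from S and G2M phase genes. The authors had removed the difference of the phase scores before clustering, and the phase calls come from the same cells, so these tests compare called phases. S and G2M cells were set against G1 cells with the library as a block, by edgeR's quasi-likelihood test. In cluster 5, 16 of 30 members were called, 10 higher and 6 lower in cycling cells, against 54.2% of all genes tested (27.2% higher and 27.1% lower), so the members were called about as often as other genes. Pgam1 rose from 145 ± 21.4 to 234 ± 41.8 CPM (log2 fold change 0.71, SE 0.06, edgeR adjusted p = 2.2e-06). Tpi1 rose from 67.6 ± 6.34 to 118 ± 17.9 CPM and Gapdh from 611 ± 168 to 898 ± 224 CPM. The others called higher were Slc16a1, Gys1, Pgk1, Ldha, Pkm, Pfkp and Eno1. Called lower were Slc2a3, Pfkfb4, Slc16a3, Pygl, Pfkfb3 and Slc2a1, and Slc2a3 fell from 188 ± 32.1 to 110.0 ± 28.5 CPM. Markers of several cell types moved with the phase in cluster 5. In 6 of 6 libraries the summed level was lower for the 5 mature neutrophil markers (953 to 1550 CPM in G1 and 309 to 906 CPM in cycling cells) and the 3 gelatinase stage markers (2320 to 6107 CPM in G1 and 848 to 2911 CPM in cycling cells). It was also lower in 6 of 6 for the 4 dendritic cell markers (1803 to 4548 CPM in G1 and 435 to 1143 CPM in cycling cells) and the 4 macrophage markers (521 to 2222 CPM in G1 and 111 to 898 CPM in cycling cells). The 3 ameloblast markers (0.133 to 1885 CPM in G1 and 0 to 9.04 CPM in cycling cells) and the 5 B lineage markers (30.7 to 99.9 CPM in G1 and 5.52 to 66.9 CPM in cycling cells) were lower in 6 of 6 too. The summed level was higher in 6 of 6 for the 5 precursor markers (68.4 to 159 CPM in G1 and 365 to 1298 CPM in cycling cells) and the 3 T and NK cell markers (6.91 to 40.2 CPM in G1 and 7.86 to 53.6 CPM in cycling cells), and in 5 of 6 for the 4 immature neutrophil markers (11624 to 31523 CPM in G1 and 14918 to 50944 CPM in cycling cells). Of the T and NK cell markers only Nkg7 rose on average (10.2 to 28.5 CPM), while Cd3d (7.24 to 4.73 CPM) and Cd3e (1.68 to 1.04 CPM) fell. Nkg7 also had 101.5 CPM in cycling cells of cluster 4. Flt3 rose from 16 to 18.4 CPM, against the sum of the dendritic cell markers. The part of cells with any of these markers in the members' changes was not tested.

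In the monocyte-labelled cells alone, a choice made after the data were seen, 21 of 30 members were called, 16 higher and 5 lower, against 54% of all genes (26.4% higher and 27.6% lower). Gapdh rose from 629 ± 191 to 1050 ± 240.0 CPM and Pgam1 from 144 ± 25.1 to 281 ± 29.3 CPM. Slc2a3 turned its direction and rose from 20.4 ± 7.26 to 33.3 ± 10.6 CPM (log2 fold change 0.68, SE 0.13, edgeR adjusted p = 1.6e-04). Hk3, which was not called in the whole cluster, rose as well (log2 fold change 0.63, SE 0.09, edgeR adjusted p = 4.2e-06). Called lower were Pdk1, Pfkfb3, Pfkfb4, Pgm1 and Pygl. The 4 immature neutrophil markers were higher in cycling cells in 6 of 6 libraries, from a summed 767 to 4306 CPM in G1 to 3832 to 16614 CPM in cycling monocyte-labelled cells. The 5 precursor markers were higher in 6 of 6 (34.5 to 123 CPM in G1 and 355 to 1089 CPM in cycling cells), and the 4 dendritic cell markers (1771 to 4674 CPM in G1 and 34.1 to 854 CPM in cycling cells) and the 4 macrophage markers (176 to 415 CPM in G1 and 64.5 to 264 CPM in cycling cells) were lower in 6 of 6. Also lower in 6 of 6 were the sums of the 5 mature neutrophil markers (276 to 393 CPM in G1 and 152 to 353 CPM in cycling cells) and of the 5 B lineage markers (13.2 to 118 CPM in G1 and 4.82 to 15.1 CPM in cycling cells). Of the mature neutrophil markers, Csf3r (213 to 125 CPM), Il1b (62.4 to 23 CPM) and Il1r2 (28.3 to 23.9 CPM) fell on average. Cxcr2 (15.9 to 18.2 CPM) and Stfa2l1 (8.76 to 15.7 CPM) did not fall. The summed level of the 5 monocyte markers (5215 to 6391 CPM in G1 and 6192 to 7143 CPM in cycling cells) and that of the 3 T and NK cell markers (2.04 to 3.19 CPM in G1 and 3.49 to 19.4 CPM in cycling cells) was higher in 6 of 6. Single markers did not all follow their set. Ly6c2 (1661 to 2451 CPM) and F13a1 (1354 to 2118.5 CPM) rose on average, but Csf1r (478 to 163 CPM), Ccr2 (1361 to 910 CPM) and Ms4a6c (1069 to 976 CPM) fell. Vcam1 of the macrophage set rose from 13.8 to 17 CPM. The part of all these markers in the members' changes was not tested.

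In cluster 0, 18 of 30 members were called, 3 higher and 15 lower in cycling cells, against 42.6% of all genes (20.8% higher and 21.8% lower), so the members lay above the background share on the lower side and below it on the higher side. Higher were Slc16a1, Ldhb and Tpi1, and Ldhb rose from 4.09 ± 1.26 to 13.9 ± 4.53 CPM (log2 fold change 1.48, SE 0.18, edgeR adjusted p = 7.0e-07). Slc2a3 fell from 416 ± 43.7 to 285 ± 41.9 CPM, Pygl from 705 ± 66.1 to 521 ± 48.3 CPM and Gbe1 from 205 ± 32.7 to 141 ± 39.5 CPM. The others called lower were Slc16a3, Aldoa, G6pdx, Pfkfb3, Pgk1, Ldha, Gapdh, Hk1, Hk3, Slc2a1, Ugp2 and Pkm. The fit placed members 0.20 lower on the log2 scale than plain CPM ratios, and the called members had the same direction on both. The 5 precursor markers summed to 162 to 339.8 CPM in G1 and 475 to 777 CPM in cycling cells, and the 3 gelatinase stage markers to 6958 to 11748 and 2242 to 7385 CPM. The 4 macrophage markers were higher in cycling cells in 6 of 6 libraries (13.6 to 23.7 CPM in G1 and 24 to 114 CPM in cycling cells), and the sum of the 5 monocyte markers was lower in 6 of 6 (878 to 984 CPM in G1 and 781 to 938 CPM in cycling cells). Ly6c2 made up most of that sum and fell from 915 to 768 CPM on average. Ccr2 (2.79 to 15.6 CPM), F13a1 (2.49 to 19.4 CPM) and Ms4a6c (2.46 to 10.9 CPM) rose instead, and Csf1r had 11 and 11.8 CPM. The part of these markers was not tested. Femur replicate 1 stood apart by its shallow cycling cells, with a median of 1560 UMIs in S phase and 2920 UMIs in G2M phase in cluster 0. Its S phase cells of cluster 5 (median 1639.5 UMIs) and G1 cells of cluster 4 (median 3605 UMIs) were shallow too. Without this library 18 members were called in cluster 0 (background 35.5%), 17 in cluster 5 (53.4%) and 5 in cluster 4 (12.3%).

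In cluster 4, with 6 to 28 G1 cells per library, 3 of 29 members were called, against 12.3% of all genes (8.92% higher and 3.42% lower). The cells called G1 there held cycling markers, since Mki67, Top2a and Mcm5 summed to 359.7 to 694 CPM, against 21.7 to 59.6 CPM in the G1 cells of cluster 0 and 20.2 to 57.1 CPM in those of cluster 5. In the cells called S or G2M the sum was 1188 to 2074 CPM in cluster 4 and 461 to 995 CPM in cluster 0. The call of G1 is therefore not borne out by these markers in cluster 4, and the values below compare cells by their called phase alone. Slc2a3 fell from 223 ± 70.8 to 151 ± 6.87 CPM (log2 fold change -0.55, SE 0.14, edgeR adjusted p = 0.00456). Tpi1 (log2 fold change 0.52, SE 0.16, edgeR adjusted p = 0.0208) and Ldhb (log2 fold change 0.75, SE 0.26, edgeR adjusted p = 0.0488) rose. The 3 gelatinase stage markers (1426 to 6520 CPM in G1 and 793 to 2772 CPM in cycling cells) and the 5 mature neutrophil markers (556 to 1223 CPM in G1 and 383 to 595 CPM in cycling cells) were lower in cycling cells in 6 of 6 libraries. The summed level of the 5 precursor markers was higher in 5 of 6 (537 to 4297 CPM in G1 and 2932 to 4912 CPM in cycling cells). Elane, Prtn3 and Fcnb rose on average, while Mpo (344 to 293 CPM) and Ctsg (135 to 117 CPM) fell. The part of these marker sets was not tested. DESeq2 also called 3 members there, against 10.6% of all genes, but besides Slc2a3 they were Pfkfb4 and Pygl. The count was 5 without femur replicate 1, 6 without femur replicate 2, 0 without mandible replicate 1 and 1 without any one of the others. Of the other pathway genes and regulators, Pgp, Rpia and Egln1 were called higher and Ppp1r3b, Ldhc and Emb lower, and Ldhc lies 5576 bp from Ldha on the same strand.

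S phase was also set against G2M phase in cluster 4, where both had many cells, again a choice made after the data were seen. Of 29 members, 18 were called, 11 higher and 7 lower in S phase, against 50.7% of all genes (26.2% higher and 24.6% lower). Aldoa had 356 ± 18.2 CPM in G2M and 452 ± 16.4 CPM in S phase (log2 fold change 0.36, SE 0.03), and Ldha 191 ± 22.9 and 238 ± 26.2 CPM (log2 fold change 0.33, SE 0.03). The others called higher in S phase were Slc16a1, Pdk1, Ldhb, Slc2a1, Pgam1, Eno1, Gapdh, Ugp2 and Pkm. Called lower were Pfkfb4, Hk2, Pfkp, Pfkfb3, Slc2a3, Hk3 and G6pdx. Both hexokinases Hk2 and Hk3 and both Pfkfb genes thus stood on the lower side.

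**Figure D5:**
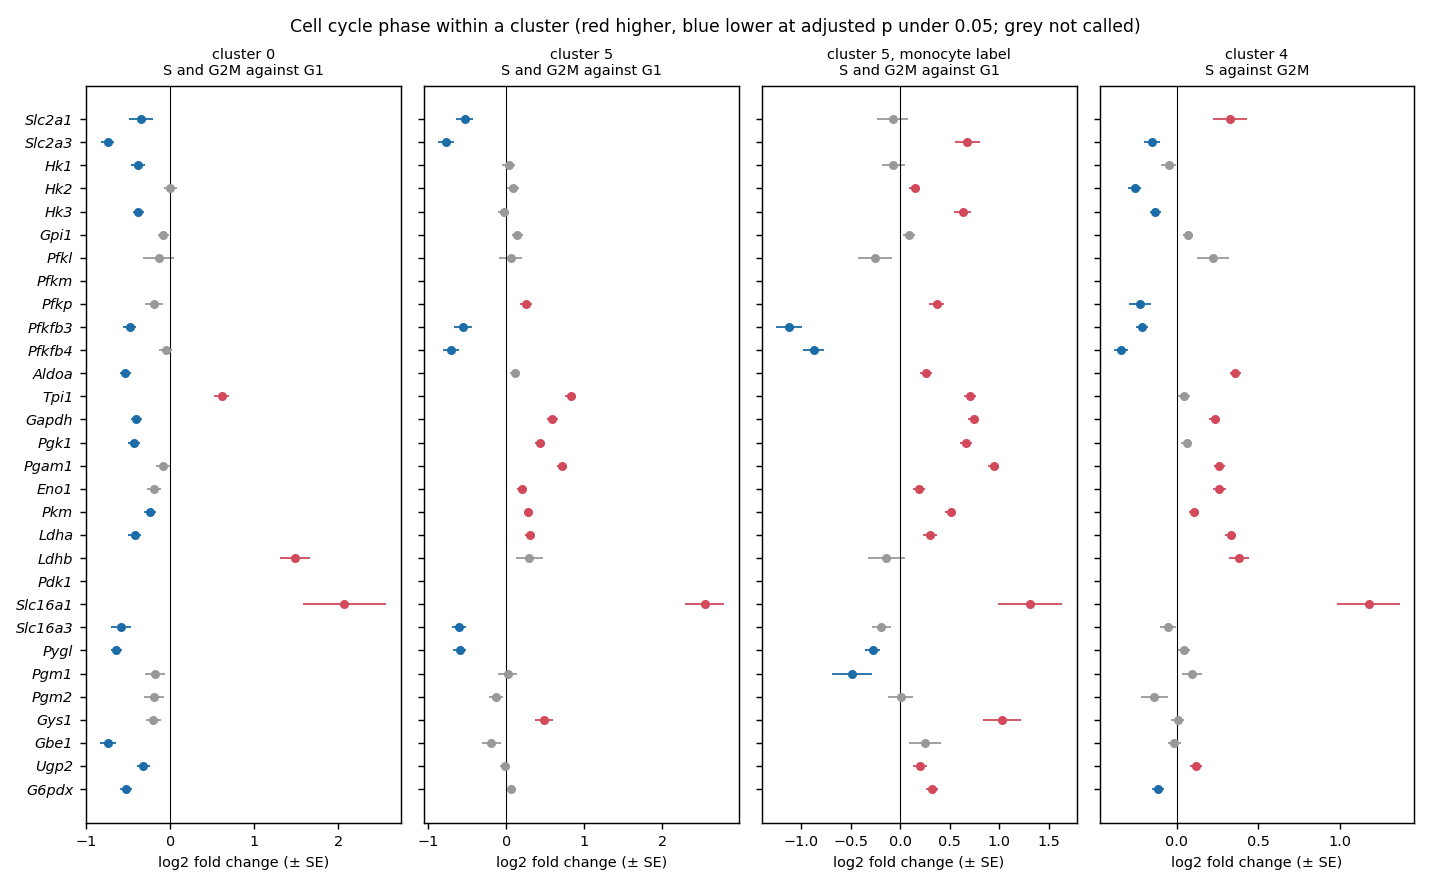
Log2 fold change with its SE (x axis) for members (y axis) between phases, in clusters 0 and 5, in the monocyte-labelled cells of cluster 5 and, for S against G2M phase, in cluster 4. Red points were called higher, blue points lower and grey points were not called, and Pdk1 and Pfkm were left out. Gapdh and Pgk1 are blue in cluster 0 and red in cluster 5, and Slc2a3 is blue in cluster 5 and red in its monocyte-labelled cells.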

How the data were processed

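The deposited UMI counts per gene and cell were made by the authors with Cell Ranger (7.0.1 per the labels, 7.1.0 per the file headers) on mm10, with no normalisation. Whether counting used strand is not given in the sources used here, and Slc2a1, Hk1, Hk2, Hk3, Gpi1, Pfkm, Pfkp, Pfkfb3, Aldoa, Tpi1, Gapdh, Pygl, Pgm1, Pgm2, Gys1, Ugp2 and G6pdx overlap genes of the other strand. Slc2a1, Slc2a3, Pfkm, Pfkfb3, Pkm, Slc16a1 and Ugp2 overlap genes of the same strand. The authors kept cells by genes detected and by mitochondrial percent, and in the deposited table kept cells had 601 to 6006 genes and at most 19.8%. They ran SCTransform, integration and Louvain clustering in Seurat and labelled cells against the ImmGen reference. Doublet removal was not stated, and no caller was run here. A deposited table of fold changes and p-values of cluster markers was not used.

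Counts of kept cells were summed here per library and cluster. Sites were compared per cluster with edgeR 4.0.16 (quasi-likelihood, TMM, filterByExpr), steps between clusters with limma 3.58.1 (log2 CPM, prior count 2) and phases with edgeR and a library block, in R 4.3.3. DESeq2 1.42.0, RLE size factors, no low count filter, leaving out each library and blocks by sample or library number were alternatives. Calls used an adjusted p under 0.05. The fits were tested on simulated data. All members may be named; other pathway genes and regulators are given as counts, apart from those called between sites or by phase in cluster 4 and the 3 furthest changes from cluster 4 to cluster 2. The members and lists were chosen with earlier results of these data known. Values are from 74091 barcodes, of which 69776 were kept, and deeper clusters give smaller errors.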

Additional observations from a re-analysis of the deposited data

Results flagged for a closer look

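For Pfkfb4, Gapdh and Pgk1, every library of cluster 0 moved one way between G1 cells and cycling cells and every library of cluster 5 moved the other way, on plain ratios of CPM. Pfkfb4, which makes and degrades fructose 2,6-bisphosphate, had a mean log2 ratio of cycling to G1 cells of 0.16 ± 0.07 in cluster 0 and -0.76 ± 0.28 in cluster 5 (SD, n = 6 libraries), a difference of -0.92. Its direction in cluster 0 depends on the scaling, since the edgeR fit gave -0.05 (SE 0.07) there and did not call it. Gapdh had -0.20 ± 0.09 in cluster 0 and 0.57 ± 0.18 in cluster 5, a difference of 0.76. Pgk1 had -0.23 ± 0.11 and 0.41 ± 0.15, a difference of 0.64. The difference between the clusters was not tested for any of the 3 genes.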

How the results depend on the processing

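Between sites, edgeR and DESeq2 called 0 members in every cluster under every alternative that was run except 1. A replicate block by library number, which uses only the 4 libraries numbered 6 and 7, called 3 members in cluster 0 (4.6% of all genes), 9 in cluster 1 (14.1%), 7 in cluster 2 (12.4%), 1 in cluster 3 (5.28%), 1 in cluster 4 (3.67%) and 2 in cluster 6 (1.03%). What the number stands for is not given in the sources used here, and it joins only 2 pairs. Deviations of same-numbered libraries correlated at 0.44 and 0.38 in cluster 0 and at 0.50 and 0.29 in cluster 1. They correlated at 0.48 and 0.32 in cluster 2 and at 0.47 and 0.35 in cluster 3, but at 0.00 and 0.13 in cluster 4. In clusters 5, 6 and 7 the values were 0.09 to 0.33, and in cluster 8 they were -0.63 and -0.17. Pairs by the replicate number of the titles had -0.40 to 0.18 in clusters 0 to 3. A block by the replicate number of the titles called 0 members. The cause of the block's effect was not tested.

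Of the counts of members called in cycling against G1 cells, that in cluster 4 moved by over 1.5 times: it was 5 with no replicate block and 0 to 6 when 1 library was left out. The count of 18 for S against G2M phase in cluster 4 belongs to another contrast on other cells. The count in cluster 5 went from 16 to 21 in its monocyte-labelled cells. Slc2a3 in cluster 5 turned to 0.68 in monocyte-labelled cells, and Pfkp there to -0.0297 with S phase alone against G1 (log2). Of the isoenzyme shares, 7 to 25 did not overlap between sites when 1 library was left out, since fewer samples overlap less often. In mean UMIs per cell, 0 members were at least 2-fold higher in every library and 18 at least 2-fold lower in every library in cluster 2 than in cluster 4. The median cell held 21611 UMIs in cluster 4 and 5848 in cluster 2, so a gene at a constant CPM would meet the lower rule on this scale. The share of all genes that met it was not counted, so the 18 cannot be read as particular to the members. For single members, 378 alternative values of the phase tests kept their side of the threshold, 43 lost the call and 2 reversed. Between sites 221 values kept their side and 10, all with the library number block, passed it. Depth limits Ldhb, Slc16a1, Pdk1 and Pfkm in neutrophils and all values of cluster 8.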
